A study of Mus musculus with 12 samples.

Results

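The 10 mouse Frizzled genes, Fzd1 to Fzd10, were followed in the dermal papilla (DP), the cluster of specialised fibroblasts at the base of the hair follicle. The members were all genes whose symbol is Fzd followed by a number. All 10 were found among the 14986 protein-coding genes that the P14 and P16 tables share. YFP-positive DP cells came from middle dorsal skin at postnatal day 14 (P14) and P16, and their ribosome-depleted RNA was sequenced. Each of the 4 groups had 3 libraries.

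The mutants, called dMF1/2, carried homozygous floxed alleles of both Fgf receptor genes (Fgfr1 Flox/Flox and Fgfr2 Flox/Flox) together with Cor-cre/+. Cor-cre is a knock-in that drives Cre from the Corin locus, which is active in the DP after birth. The YFP reporter used for the sort is switched on by Cre and was shared by all sorted cells. The labels call the controls wild type, whereas the methods of the study list as controls either Cor-cre/+ mice with heterozygous floxed receptor alleles or homozygous floxed mice without Cre. Since the reporter needs Cre, only the former could give sorted cells, so by these methods the controls shared the Cre knock-in with the mutants and carried 1 floxed allele of each receptor gene. The comparison asked how loss of Fgf signaling in the DP changed its transcripts shortly before control follicles leave the growth phase (anagen).

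Frizzleds are seven-pass membrane proteins. Their extracellular cysteine-rich domain binds the lipid of Wnt proteins, and with the co-receptors Lrp5 or Lrp6 they lead to stabilisation of β-catenin, while with other partners they act in planar cell polarity and other β-catenin-independent routes. In the hair follicle, Wnt/β-catenin activity in the DP is known to be needed for hair growth and for the inductive character of the papilla. Inside the cell, Frizzleds recruit Dishevelled through a short motif just after the last membrane helix, written KTxxxW for the amino acids Lys-Thr, any 3 residues and Trp.

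The stretch that encodes this motif was read from the GENCODE vM21 coding sequences and is shown because it is what the members share whatever their level in the papilla. All 10 coding sequences held it. The lines below give it 5′ to 3′ for 9 of them, with the codons for Lys, Thr and Trp in capitals.
Fzd1: AAGACActgaattccTGG
Fzd2: AAGACActgcactcgTGG
Fzd7: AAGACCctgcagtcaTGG
Fzd10: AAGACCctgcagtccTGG
Fzd9: AAGACTtttcagactTGG
Fzd4: AAAACTcttcacacgTGG
Fzd5: AAGACTctggagtctTGG
Fzd3: AAGACAtgctttgaaTGG
Fzd6: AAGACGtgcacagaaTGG
In Fzd1, Fzd2 and Fzd7 the motif was followed by 17 further codons, against 33 in Fzd4, 50 in Fzd10, 159 in Fzd3 and 206 in Fzd6. In coding bases counted from 1 at the start codon, it lay at 1858 to 1875 of Fzd1 and at 1579 to 1596 of Fzd10.

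The family fell into sequence pairs and trios. Over the 45 pairs, identity of the aligned coding bases ran from 57.5% for Fzd3 with Fzd9 to 82.0% for Fzd1 with Fzd2. Fzd7 shared 78.6% with Fzd1 and 78.5% with Fzd2, Fzd5 shared 76.2% with Fzd8, and Fzd10 was closest to Fzd9, at 71.0%. The longest stretch that the annotated transcripts of any 2 members had in common was 47 bases, and the reads were 61 bases long, so no full-length read could match 2 members without a mismatch.

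The libraries held between 19302358 and 29860750 reads on protein-coding genes. All 12 listed DP markers were found, and their summed level was at least 48786 normalized reads in every library, against at most 778 for the 7 hair follicle keratinocyte markers found and 92.1 for 6 melanocyte markers. The 6 endothelial markers summed to 558 to 1344 and the 6 dermal sheath markers to 13813 to 42804. Both replicate 1 libraries of P14 stood apart in the share of reads from the collagen genes Col1a1, Col1a2 and Col3a1, at 17.7% and 21.0% against 27.2% to 36.1% in the other 10. For the targeted genes, Fgfr1 ranged from 7745 to 9981 normalized reads in P14 controls and from 6391 to 7405 in P14 dMF1/2, with an adjusted p of 0.501 (limma). At P16 it ranged from 8512 to 12517 and from 6226 to 8016 (limma adjusted p = 0.130, and 0.0109 with the replicate number as a block). For Fgfr2 the log2 fold change was -0.11 at P14 and -0.01 at P16. These counts cover all exons of a gene and do not single out the floxed ones.

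Levels of the members were compared per kilobase of exon, after scaling all 12 libraries together. Fzd1 was the most abundant Frizzled of the papilla, with a median of 1464 normalized reads per kilobase over 12 libraries, followed by its closest relatives Fzd2 at 793 and Fzd7 at 462. Fzd10 came next at 332 and Fzd4, the receptor for Norrin as well as for Wnts, at 238. Fzd8 stood at 91.7, Fzd5 at 48.7 and Fzd3, known for axon guidance and cell polarity, at 41.9. Fzd6, which orients hairs in the epidermis, and Fzd9 were close to the lower end, at 10.4 and 6.95.

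Most steps of this order held in all 12 libraries. The exceptions were Fzd7 over Fzd10 in 8 of 12 libraries, Fzd10 over Fzd4 in 7, Fzd5 over Fzd3 in 9 and Fzd6 over Fzd9 in 9. The place of Fzd10 differed with genotype. It was below Fzd7 in all 6 control libraries and above it in 4 of 6 dMF1/2 libraries, among them all 3 of P14. Fzd4 was above Fzd10 in 5 of 6 control libraries and in 0 of 6 dMF1/2 libraries. The ranges of Fzd5 and Fzd3, and those of Fzd6 and Fzd9, overlapped. For Fzd3 and Fzd8 the level depended on the gene model. The annotation used here gives Fzd3 12804 exonic bases, but only 4227 of them lie inside the span of the gene in the deposited tables. For Fzd8 the numbers are 5974 and 3346. With the shorter lengths, a choice made after seeing the data, the group means of Fzd3 lay between 102 and 144 reads per kilobase and those of Fzd8 between 159 and 176, which puts Fzd3 above Fzd5.

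**Figure D1:**
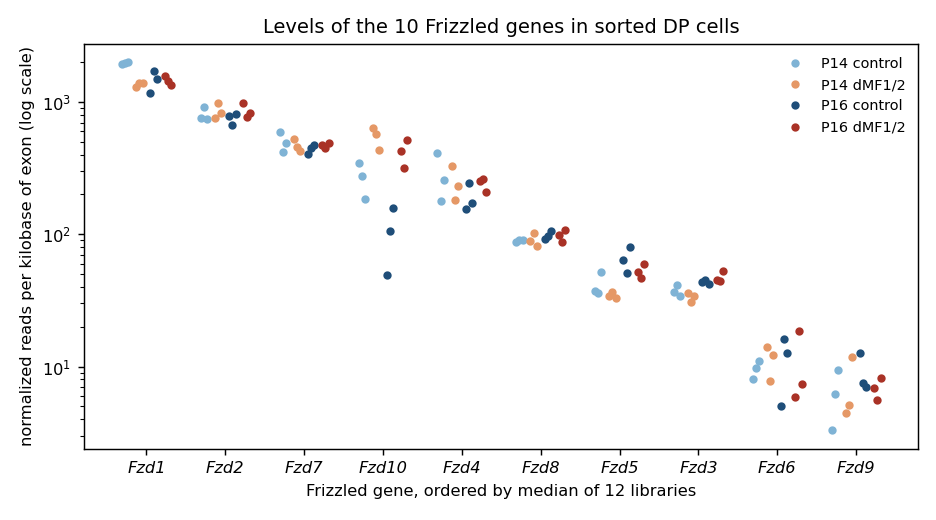
Normalized reads per kilobase of exon on a log axis for the 10 Frizzled genes, ordered by their median; each point is 1 of the 12 libraries, coloured by group. Fzd1 lies highest in every library, and Fzd10 has a wide spread, with the 3 P16 control libraries lowest.

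Summed over the family, the reads per kilobase were 4013 ± 180 (SD, n = 3) in P14 controls, 3659 ± 155 in P14 dMF1/2, 3176 ± 350.5 in P16 controls and 3663 ± 242 in P16 dMF1/2. The trio of Fzd1, Fzd2 and Fzd7 made up 69.4% to 84.7% of this sum in every library. Fzd10 supplied 6.67% ± 1.76 of it in P14 controls and 3.20% ± 1.47 in P16 controls (SD, n = 3). In dMF1/2 it supplied 14.9% ± 2.30 at P14 and 11.5% ± 2.64 at P16. The lowest dMF1/2 library, at 9.16%, lay above the highest control library, at 8.26%. These shares are parts of 1 sum, so a higher share of Fzd10 lowers those of the others.

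**Figure D2:**
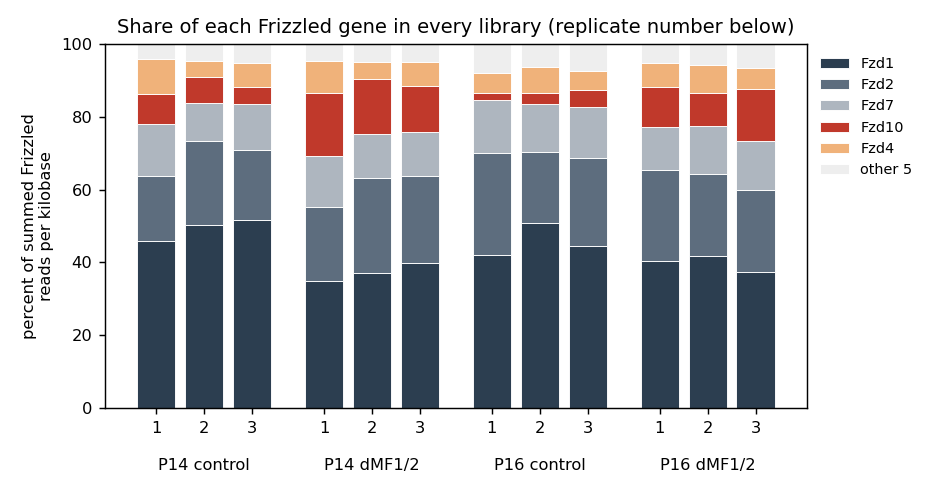
Stacked bars give each gene's percent of the summed Frizzled reads per kilobase in each of the 12 libraries, with the replicate number under each bar. The Fzd10 segment spans 12.5% to 17.1% in P14 dMF1/2 and 1.79% to 4.73% in P16 controls.

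Fzd10 differed most between the genotypes. It is a single-exon gene on chromosome 5 (mm10, 128600844 to 128604093, plus strand) and encodes a receptor linked to Wnt/β-catenin signaling. At P16 the 3 control libraries held 163, 349 and 520.1 normalized reads of Fzd10, and the 3 dMF1/2 libraries held 1427, 1042 and 1723. Every dMF1/2 library was above every control library. The ratio of the means was 4.06, and libraries with the same replicate number gave 8.74, 2.98 and 3.31. The log2 fold change, on log2(value + 1), was 2.14 ± 0.38 (SE), with an adjusted p of 0.0228 in limma over 13457 genes. It was the only one of the 10 Frizzled genes called at P16, while 4.32% of all genes were called. The exact permutation test of the 3 against 3 libraries gave p = 0.1, two-sided, the smallest it can reach. Leaving out dMF1/2 replicate 1 or 3 took the limma adjusted p to 0.0708 and 0.101.

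At P14 the same gene showed the same order. The control libraries held 1117, 884 and 593 normalized reads, and the dMF1/2 libraries held 2035, 1831 and 1399. The groups did not overlap, as was the case for 12.7% of all genes at P14 and 24.5% at P16. The log2 fold change was 1.05 ± 0.24 (SE), and the limma adjusted p was 0.295 over 13334 genes, of which only 0.0525% were called. Same-numbered libraries of a day varied together, and with the replicate number as a block the adjusted p was 0.00315, with 1.68% of all genes called. Of the 10 Frizzled genes, limma called none at P14 without the block and Fzd10 and Fzd1 with it. DESeq2 without a block called the same pair, with adjusted p of 0.00816 for Fzd10 and 1.62e-06 for Fzd1, while it called 1.55% of all genes. Within replicate numbers the ratios were 1.82, 2.07 and 2.36.

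The normalized reads of each day were scaled separately in the deposited tables, so changes between days were taken from a joint scaling of the 12 libraries. Between the days Fzd10 fell in controls, by 1.47 on the log2 scale (SE 0.37, limma adjusted p = 0.0247). In dMF1/2 the change was -0.38 with the same SE and an adjusted p of 0.589. The difference between the 2 genotype effects, 1.09 ± 0.52 (SE), had an unadjusted p of 0.0602 in the limma fit of all 12 libraries, and of 0.0126 with the block, where the adjusted p was 0.298. It rested in part on single P16 controls, being 0.63 when replicate 1 was left out and 1.46 when replicate 3 was. The call in controls rested on single libraries. Without P14 control replicate 1 or 2 the adjusted p was 0.0902 and 0.0658, and without P16 control replicate 1, the lowest library, it was 0.0702.

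Single DP markers differed between the genotypes, not all in the same direction. The summed level of the 12 markers was 48786 to 87487 normalized reads in P16 controls and 90222 to 135412 in P16 dMF1/2, without overlap, whereas at P14 it was 107862 to 145700 and 93052 to 148835. This sum follows its most abundant genes. Of the single markers at P16, limma called Alpl (2.45), Prom1 (1.07) and Fgf10 (0.96) as higher in dMF1/2 and Crabp1 (-0.66) as lower, and Corin was 1.73 with an adjusted p of 0.0938. Vcan, at -0.18, and Trps1, at -0.13, were not called. With the block 9 of the 12 were called as higher and Crabp1 alone as lower at P16, where 10.4% of all genes were called. At P14 limma called none of the 12 without the block. In the fit with the block, which called Fzd10 and Fzd1 at P14, Alpl was higher in dMF1/2 (1.41, adjusted p = 0.00315), and Crabp1 (-1.18, adjusted p = 0.00142) and Vcan (-0.61, adjusted p = 0.0223) were lower. In these bulk libraries fewer cells of a type and less RNA per cell cannot be told apart. Of the 4 adipocyte markers only Plin1 was in both tables, at 147 to 552 in P14 controls, 408 to 587 in P14 dMF1/2, 40.4 to 85.6 in P16 controls and 247 to 364 in P16 dMF1/2. Like Fzd10, Plin1 was higher in P16 dMF1/2 than in P16 controls, with a log2 fold change of 2.43 (limma adjusted p = 0.00604), and lower in P16 than in P14 controls, both without overlap. Over the 12 libraries, which share group and depth, Pearson's r of Fzd10 was 0.908 with Plin1 and 0.777 with the DP marker list, as a description. The sums of the dermal sheath, keratinocyte, endothelial, melanocyte and immune lists overlapped between the genotypes on both days. The part of these markers in the Fzd10 and Fzd1 results was not tested.

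**Figure D3:**
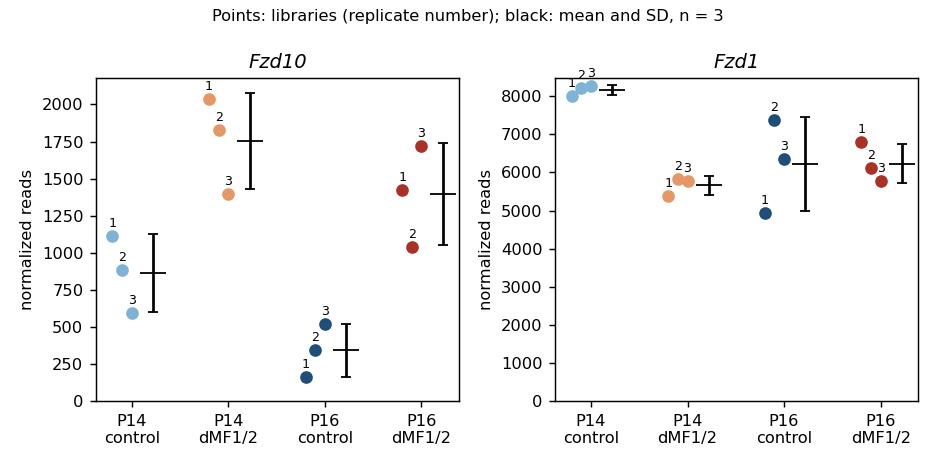
Normalized reads, scaled within each day, of Fzd10 (left) and Fzd1 (right), both axes starting at 0, for each library, numbered by replicate, with the mean and SD of 3 libraries in black. Fzd10 is higher in every dMF1/2 library than in every control library of the same day, whereas Fzd1 is lower in dMF1/2 at P14 and overlaps at P16.

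Fzd1 went the other way at P14. It is a single-exon gene on chromosome 5 (4753839 to 4758035, minus strand) and a receptor of the β-catenin route. The P14 control libraries held 8010.2, 8219 and 8260.4 normalized reads, and the dMF1/2 libraries held 5380.2, 5831 and 5776. The groups did not overlap. The log2 fold change was -0.53 ± 0.087 (SE), with a limma adjusted p of 0.147, and of 0.0173 with the replicate block. Same-numbered libraries had ratios of 0.672, 0.709 and 0.699.

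At P16 this difference was not seen. The controls held 4948, 7378 and 6341 normalized reads of Fzd1 and dMF1/2 held 6797, 6125 and 5779, with a log2 fold change of 0.02 ± 0.15 (SE). In controls Fzd1 fell from P14 to P16 by 0.45 on the log2 scale (SE 0.13, limma adjusted p = 0.0358). In dMF1/2 the change was 0.09, with an adjusted p of 0.721. The genotype effect differed between the days by 0.54 ± 0.18 (SE), with an unadjusted limma p of 0.0105 and no gene called after adjustment over 13415 genes. As a share of the family, Fzd1 supplied 45.9% to 51.6% in P14 controls and 34.9% to 39.9% in P14 dMF1/2. The fall in controls was not called without any 1 of P14 control replicates 1, 2 or 3 or P16 control replicates 1 or 3, where the adjusted p lay between 0.0680 and 0.113. Without P16 control replicate 1, the lowest library, the log2 change was -0.30.

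Fzd2 and Fzd7, the relatives of Fzd1, stayed within narrow ranges. Fzd2 held 2685 to 3299 normalized reads in P14 controls, 2747 to 3552 in P14 dMF1/2, 2491 to 2988 in P16 controls and 2888 to 3661 in P16 dMF1/2. Fzd7 held between 1872 and 2664 in all 12 libraries. Their genotype differences ran from -0.09 to 0.19 on the log2 scale, and neither was called in any comparison. The groups overlapped on both days.

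Fzd4, which signals in blood vessels when bound by Norrin, had 2727, 1191 and 1715 normalized reads in P14 controls and 2176, 1219 and 1551 in P14 dMF1/2. The highest library of each genotype was replicate 1, the pair with the low collagen share. At P16 the controls held 1066, 1655 and 1164 and dMF1/2 held 1741, 1794 and 1427. The groups overlapped through P16 control replicate 2. The log2 fold change at P16 was 0.37 ± 0.17 (SE), with a limma adjusted p of 0.286, and without that library it was 0.56 with an adjusted p of 0.0488. The endothelial marker sum was 558 in P16 control replicate 1, 1312 in replicate 2 and 1234 in replicate 3, against 703 to 1054 in P16 dMF1/2. The sum of the 7 keratinocyte markers found went with Fzd4 more closely. It was 778, 401 and 499 in the P14 control libraries and 278, 549.6 and 239 in the P16 control libraries, highest in both days in the library with the most Fzd4. In dMF1/2 it was 618, 499 and 319 at P14 and 455, 554 and 436 at P16. Over the 12 libraries Pearson's r of Fzd4 was 0.820 with the keratinocyte list, 0.659 with the DP list and 0.439 with the endothelial list, as a description. It was -0.619 with the immune list. The DP marker sum, given above, did not overlap between the genotypes at P16. The part of all these markers in the Fzd4 values was not tested.

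Fzd5 rose with age. With all 12 libraries scaled together, the P14 controls held 258, 247 and 358 normalized reads and the P16 controls 439.7, 351 and 551. The P14 dMF1/2 libraries held 234, 253 and 229, and the P16 dMF1/2 libraries held 357, 323 and 413. The days overlapped in controls, through P14 replicate 3 and P16 replicate 2, and not in dMF1/2. The log2 change was 0.63 ± 0.18 (SE) in controls, with a limma adjusted p of 0.0364, and 0.60 ± 0.18 in dMF1/2, with an adjusted p of 0.0702. The change in dMF1/2 was called with DESeq2 without a block (adjusted p = 0.0294). It was also called in limma with the replicate number as a block (adjusted p = 0.0347). For changes between days that block joined same-numbered libraries of P14 and P16, which did not vary together, so it adds no separate support. The difference between these changes was -0.03 ± 0.25 (SE). Without any 1 of P14 control replicates 1 or 2 or P16 control replicates 1 or 3 the adjusted p in controls lay between 0.0991 and 0.121. Of the exonic bases of Fzd5, 1233 (17.8%) also lie in Gm38058 on the opposite strand, and the strand setting of the counting is not given in the sources used here. The genotype differences of Fzd5, -0.24 at P14 and -0.27 at P16, were not called.

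Fzd8, the nearest relative of Fzd5, held 484 to 658 normalized reads in all 12 libraries and was not called in any comparison. Its genotype differences were 0.02 ± 0.10 at P14 and -0.01 ± 0.11 at P16 (SE), the smallest of the family on average over both days.

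Fzd3 rose from P14 to P16 in dMF1/2. On the same joint scale its P14 libraries held 464, 393 and 436 normalized reads and its P16 libraries 581, 573 and 671, without overlap. The log2 change was 0.50 ± 0.10 (SE), with a limma adjusted p of 0.0169. In controls Fzd3 went from 468, 531 and 439.8 to 562, 582 and 543, also without overlap, a change of 0.23 with the same SE and an adjusted p of 0.136. The difference between the changes was 0.26 ± 0.14 (SE), with an unadjusted p of 0.0912. Without any 1 of P14 dMF1/2 replicates 2 or 3 or P16 dMF1/2 replicates 1 or 3 the adjusted p in dMF1/2 lay between 0.0503 and 0.0705.

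Fzd6 and Fzd9 were low. Fzd6 held between 24.4 and 91.4 normalized reads and Fzd9 between 7.45 and 29.7, and for both the range within a group was wide. Neither was called in any comparison. The standard errors of their genotype differences, from 0.27 to 0.53 on the log2 scale, were larger than those of Fzd1, Fzd2, Fzd7 and Fzd8 on the same day.

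**Figure D4:**
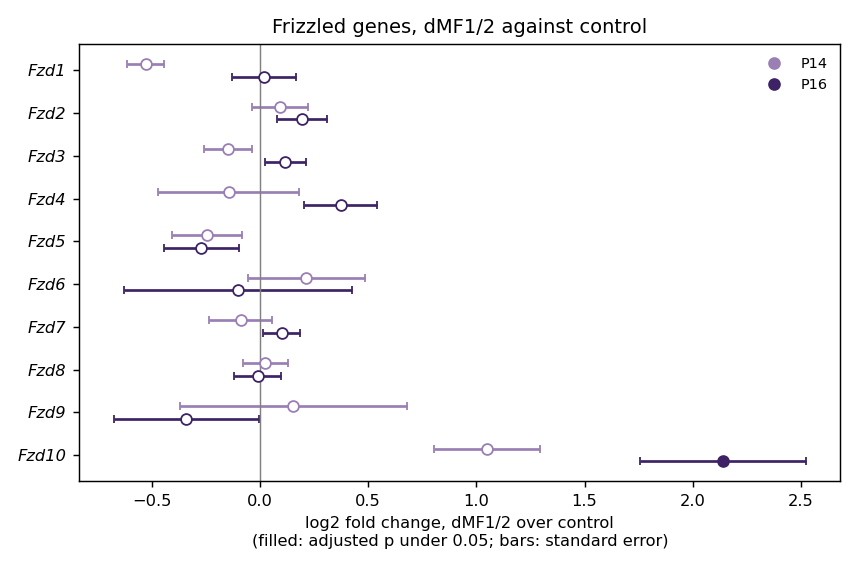
Log2 fold change of dMF1/2 over control for the 10 Frizzled genes at P14 (light) and P16 (dark), with standard errors; filled points passed the limma adjusted threshold without the block. Fzd10 is the only filled point, at 2.14 at P16, and the other 9 genes lie between -0.53 and 0.37 over both days.

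Across the family, 3 of 10 genes were called for a change from P14 to P16 in controls, with Fzd5 higher and Fzd1 and Fzd10 lower, while 14.5% of all genes were called, 6.26% as higher and 8.28% as lower. In dMF1/2 it was 1 of 10, Fzd3, while 5.8% of all genes were called, 1.83% as higher. No Frizzled gene was called for a genotype effect that differed between the days. In that comparison limma called 0 of 13415 genes, 4.83% had an unadjusted p under 0.05, and DESeq2 called 7 genes, or 163 with the block, none of them a Frizzled. All 10 members passed the filter of a mean of 10 normalized reads in each comparison.

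**Figure D5:**
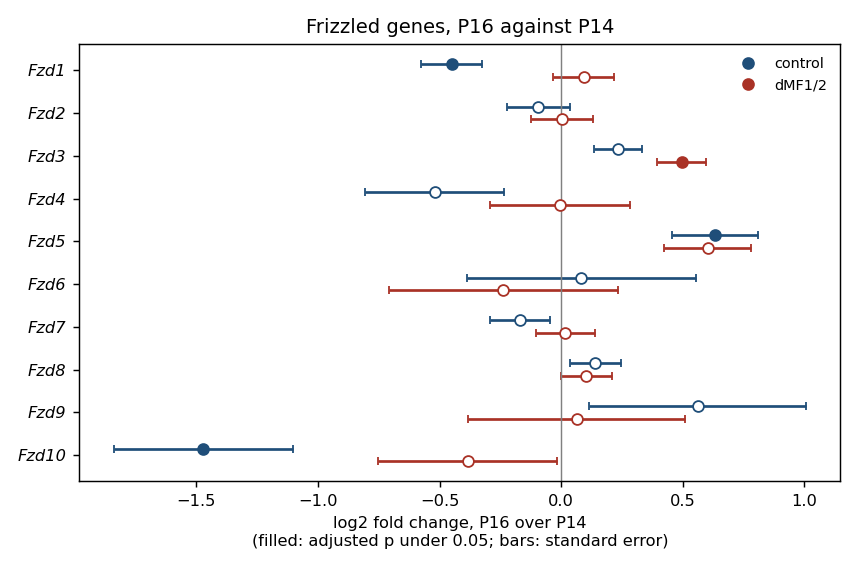
Log2 fold change of P16 over P14 for the 10 Frizzled genes in controls (blue) and dMF1/2 (red), with standard errors; filled points passed the adjusted threshold. Fzd10 and Fzd1 fell and Fzd5 rose in controls, and Fzd3 rose in dMF1/2.

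The partners of the Frizzleds were taken from a list of 52 genes, of which 48 were in both tables. At P16, 43 could be tested. Of these, 5 were higher and 1 lower in dMF1/2, while 4.32% of all genes were called, and the median log2 fold change was 0.12, against -0.0043 over all genes. At P14 none of 44 was called, while 0.0525% of all genes were. With the replicate block 4 were higher (Ndp, Wnt5a, Wnt5b and Lgr4) and 1 lower (Vangl1) at P14, where 1.68% of all genes were called, and 7 were higher and 3 lower at P16, where 10.4% were.

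Among the ligands, Wnt5a, the best known ligand of the β-catenin-independent route, was 3033 to 3925 normalized reads in P16 controls and 5456 to 6295 in P16 dMF1/2. Its log2 fold change was 0.82 ± 0.12 (SE), with a limma adjusted p of 0.0107. Wnt5b, its close relative, ranged from 310.3 to 387 in controls and from 657 to 830.5 in dMF1/2, a log2 fold change of 1.06. Wnt16 was lower, at 155 to 236 in controls and 49.7 to 83.2 in dMF1/2, a log2 fold change of -1.64. The other 8 of 11 tested ligand genes were not called at P16 without the block. Among them, Wnt10b had a log2 fold change of -1.97, with an adjusted p of 0.0588, and of 0.0370 with the block.

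Ndp encodes Norrin, the ligand that binds Fzd4. It held 172 to 197 normalized reads in P16 controls and 311 to 439 in P16 dMF1/2, with a log2 fold change of 1.02 ± 0.14 (SE) and a limma adjusted p of 0.0104. Tspan12, which helps Norrin signal through Fzd4, was not called at -0.28. At P14 Ndp held 185 to 279 and 389 to 448, without overlap, and its adjusted p was 0.188, and 0.0179 with the replicate block.

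Of the genes that set how long Frizzleds stay on the cell surface, Lgr4, a receptor for R-spondins that keeps the ubiquitin ligases Znrf3 and Rnf43 from removing Frizzleds, held 1497 to 1890.4 normalized reads in P16 controls and 3567 to 5551 in P16 dMF1/2. Its log2 fold change was 1.29 ± 0.17 (SE), with a limma adjusted p of 0.00862. Znrf3 was not called, at 0.03, and Rnf43 was under the filter. In wild-type skin sections, by immunostaining and in situ hybridization, the study saw Lgr4, Znrf3 and Rnf43 in the follicle epithelium and did not detect them in the DP. Here RNA of sorted cells was counted, and the source of the Lgr4 reads was not tested. The other tested genes of this group, 4 of them, were not called without the block, and Shisa2, which retains Frizzleds inside the cell, was called as higher with it (0.93, adjusted p = 0.0186).

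Secreted Frizzled-related proteins bind Wnts outside the cell with a domain like that of the receptors. Sfrp2 held 671 to 1352 normalized reads in P16 controls and 2872 to 3490 in P16 dMF1/2, a log2 fold change of 1.89 with a limma adjusted p of 0.00801. In controls both fell between the days, with log2 changes of -2.18 for Sfrp1 (adjusted p = 0.00861) and -2.17 for Sfrp2 (adjusted p = 0.00355). For Sfrp1 the log2 fold change at P16 was 1.505, with an adjusted p of 0.0977, and of 0.0184 with the block. In the same step from P14 to P16 in controls, 5 of 44 partners fell and none rose, the others being Smo, Wnt2 and Wnt5b. This share, 11.4%, is below the 14.5% of all genes called and near the 8.28% called as lower. In dMF1/2, Wnt10b alone was called, at -2.11. This is 2.27% of the 44 partners, below the 5.8% of all genes called.

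None of the 7 co-receptors and other Wnt receptors was called between the genotypes by limma without the block. Lrp6 differed by 0.09 and 0.05 between the genotypes and Lrp5 by -0.33 and -0.42. Lrp5 was called at P16 with the block (adjusted p = 0.0174) and had an adjusted p of 0.0776 without it. None of the 3 Dishevelled genes, whose products bind the motif shown above, was called, and their genotype differences ran from -0.11 to 0.12. Of the 5 polarity partners none was called without the block. Celsr1 had a log2 fold change of 0.99 ± 0.34 (SE) at P16, with an adjusted p of 0.158, and of 0.102 with the block. Celsr3, at 4.44 to 20.5 normalized reads in the P14 libraries, had -1.17 ± 0.48 (SE) at P14, with an adjusted p of 0.662, and of 0.316 with the block. Vangl1 was lower in P14 dMF1/2 with the block (-0.50, adjusted p = 0.0299) and had an adjusted p of 0.330 without it.

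The genes whose pattern over the 12 libraries was most like that of each called Frizzled were ranked by Pearson's r of their log2 values, as a description, since the libraries share group and depth. For Fzd10 these were Klhl3, Igsf3, Ptprz1, Lrrc7 and Ephb1, with r from 0.956 to 0.960. For Fzd1 they included Lox, Vcan, Frmd4b and Vangl1, with r from 0.848 to 0.908. Vcan encodes versican, a matrix proteoglycan used as a DP marker, and Vangl1 is a polarity partner of the Frizzleds. For Fzd5 they were Slc20a1, Mxd1, Tsc22d2, Chka and the heat shock gene Hsph1, with r from 0.963 to 0.978. For Fzd3 they were Zfp874a, Ltn1, Gm17296, Cggbp1 and Nckap1, with r from 0.911 to 0.966. Fzd1 and Fzd10 themselves had an r of 0.00.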

How the data were processed

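DP cells of 12 samples, 3 for each genotype at P14 and P16, were sorted in repeated rounds for YFP. Per the study's methods and the labels, RNA was ribosome-depleted, made into stranded libraries and read as 61-base single reads. The authors trimmed with Trimmomatic, aligned with TopHat2 to mm10, counted with HTSeq on GRCm38.p4 genes and normalized with DESeq2, without pooling replicates. The deposited values are a normalized signal (reads divided by the DESeq2 size factor of each day), and whole reads were recovered for all values within 0.01. The deposited mean over libraries was not used, and the deposited log2 fold change with its standard error, score (test statistic), p-value and adjusted p-value columns hold the authors' own comparison and were not used. Tests used limma 3.58.1 (R 4.3.3) with an intensity trend on log2(value + 1), keeping genes that averaged 10 or more. P-values were adjusted by Benjamini-Hochberg over every gene tested, and 0.05 was the threshold. The genotype contrasts of each day kept the deposited scaling. Changes between days and their difference between genotypes came from 1 fit of the 12 libraries, rescaled by median of ratios over the shared genes. edgeR 4.0.16 quasi-likelihood and DESeq2 1.42.0 on the recovered reads were alternatives. The test scripts were checked on simulated data. Within a day, deviations from the group mean of same-numbered libraries correlated over genes at 0.304 to 0.586 (P14) and 0.256 to 0.311 (P16), so the replicate number of the labels was used as a block beside results it changed. For changes between days the block joined same-numbered libraries of both days, although these correlated only at -0.162 to 0.208 within a genotype. Per the study, each library came from 1 mouse. Per kilobase levels used GENCODE vM21 exon lengths. Named genes were all Frizzleds, a list of partners, and the 5 genes most alike for each called Frizzled. Of the latter, 1 is not reported here. The members and lists were chosen with earlier results of these data known. P10, P12 and P18 samples were not analysed here.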

Additional observations from a re-analysis of the deposited data

How the results depend on the processing

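Each group had 3 libraries, and Fzd6 and Fzd9 had few reads and wide spreads. No Frizzled gene was called at P14 in the reported fit, but 2 (Fzd1 and Fzd10) were with the replicate block, with DESeq2, and with edgeR or DESeq2 plus the block. The fits of edgeR or DESeq2 plus the block, leaving out both P14 replicate 1 libraries and the shorter exon lengths were chosen after seeing the data. Over all genes, limma called 7 at P14 and 582 at P16, edgeR on the recovered reads 7 and 603, DESeq2 207 and 1123, and limma with the block 224 and 1403. For the changes between days limma called 1951 genes in controls and 778 in dMF1/2, DESeq2 2580 and 1341, and fits of 1 genotype 806 and 322. With 1 library left out, limma called 0 to 18 genes at P14, 149 (without dMF1/2 replicate 3) to 684 at P16, 693 (without P16 control replicate 1) to 1945 for the change in controls and 257 (without P16 dMF1/2 replicate 1) to 678 for that in dMF1/2, so the shares of all genes called move with single libraries. For the change in dMF1/2 the count went from 1 to 2 with DESeq2, Fzd5 being added (DESeq2 adjusted p = 0.0294). It was also 2 with the replicate block in limma (adjusted p = 0.0347 for Fzd5), edgeR and DESeq2. For changes between days this block joined same-numbered libraries of both days. Fits of the 6 libraries of a genotype gave 0 calls in controls and 0 in dMF1/2, and without both P14 replicate 1 libraries the control count was 0. Leaving out each library in turn gave counts of 0 to 0 at P14, 0 to 2 at P16, 0 to 3 for the change in controls, 0 to 1 for that in dMF1/2 and 0 to 0 for the interaction. Replicate numbers did not pair libraries across days (correlations from -0.162 to 0.208), so the fits with the block give no separate support for the Fzd5 change. The block changed no other Frizzled call. Signs turned only in values that were not called. Without both P14 replicate 1 libraries, Fzd6 was -0.070 at P14 and -0.038 for the control change, Fzd4 0.22, Fzd9 -0.19 and Fzd2 -0.078 for the dMF1/2 change, and Fzd5 0.026 for the interaction. For the dMF1/2 change, Fzd9 was -0.032 with DESeq2, -0.039 with edgeR and -0.00099 with edgeR plus the block, and Fzd2 was -0.012 with TMM scaling, -0.0079 with edgeR and -0.0063 with edgeR plus the block. With 1 library left out, the log2 values that changed sign ranged as follows. At P14 Fzd2 ran from -0.0089 to 0.19, Fzd4 from -0.43 to 0.17, Fzd7 from -0.21 to 0.042, Fzd8 from -0.061 to 0.096 and Fzd9 from -0.25 to 0.49. At P16 Fzd1 ran from -0.14 to 0.15, Fzd6 from -0.59 to 0.23 and Fzd8 from -0.087 to 0.073. For the control change Fzd2 ran from -0.15 to 0.0019 and Fzd6 from -0.25 to 0.57. For the dMF1/2 change Fzd2 ran from -0.095 to 0.10, Fzd4 from -0.20 to 0.22, Fzd6 from -0.73 to 0.082, Fzd7 from -0.050 to 0.10 and Fzd9 from -0.19 to 0.47. For the interaction Fzd2 ran from -0.0010 to 0.20, Fzd5 from -0.20 to 0.13, Fzd6 from -0.81 to 0.010 and Fzd8 from -0.11 to 0.045. The causes were not tested.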
